A study of Caenorhabditis elegans with 12 samples.

Results

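The 9 autophagy genes lgg-1, lgg-2, bec-1, unc-51, sqst-1, atg-7, atg-9, atg-13 and atg-18 were chosen by their names in a deposited table of 46936 Caenorhabditis elegans genes, and all 9 were found. RNA of whole worms was sequenced from 4 genotypes with 3 libraries each: a wild-type control, daf-2lf, skn-1gf, and worms with both mutations (daf-2lf;skn-1gf, called the double mutant), where gf stands for gain and lf for loss of function. Worms of every genotype were fed OP50 bacteria on NGM plates, and the labels name neither the alleles nor the age, stage, sex or number of worms. SKN-1 is the worm's Nrf-family transcription factor of stress and detoxification responses, and DAF-2 is its insulin/IGF-1 receptor. The comparisons asked how activated SKN-1 changes the transcriptome of the long-lived daf-2lf worms, and how it acts in a wild-type background. The labels do not say that replicates came from separate cultures, so the p-values measure only the spread between these libraries.

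Autophagy encloses cytoplasm in a membrane, the autophagosome, and delivers it to the lysosome for breakdown. The UNC-51 kinase and ATG-13 start the process, BEC-1 acts in the lipid kinase complex that marks the forming membrane, ATG-9 and ATG-18 help supply that membrane, ATG-7 activates the ubiquitin-like proteins LGG-1 and LGG-2 for attachment to it, and SQST-1 brings in cargo. In C. elegans, bec-1 is required for the long life of daf-2 mutants. Transcripts were measured here, not the proteins or the rate at which autophagosomes form or are cleared.

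Of the 9 genes, 5 differed in at least 1 of the comparisons below. Single comparisons called 1.62% to 52.3% of all genes tested, and the share called in at least 1 was not counted. Transcripts of the cargo receptor gene sqst-1 rose in skn-1gf and in daf-2lf, both against wild type. Those of unc-51, lgg-1 and lgg-2 rose in daf-2lf. In the double mutant no member differed from daf-2lf by the test, and sqst-1, unc-51, lgg-2 and atg-9 stood higher than in skn-1gf. No change of bec-1, atg-7, atg-13 or atg-18 passed the test in any pair of genotypes. All 9 passed the filter on low counts, and their counts ran from 177 to 5588 per library, so none of them entered the test through 1 genotype alone.

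Libraries held 16779245 to 29346039 counts, and the biological coefficient of variation between replicates was 23.9%. Levels are CPM, each count over its TMM-scaled library total times 1e6, given as mean ± SD over 3 libraries. Changes are log2 ratios with a standard error (SE), tested with edgeR's quasi-likelihood test over 15575 genes. A gene is called where its Benjamini-Hochberg adjusted p is under 0.05. Only called changes are described as a rise or a fall. skn-1 stood at 118 ± 7.06 CPM in wild type, 172 ± 6.25 with daf-2lf, 149 ± 3.66 with skn-1gf and 220.2 ± 12.1 with both, which does not check the mutations themselves. daf-2lf replicate 1 stood apart from its group by gene length: across genes, the Spearman correlation of its deviation with length was -0.576. Many of the results that rest on it are given with and without it. Scaling also mattered. With the RLE size factors, the median change of all genes moved from 0.03 to -0.13 in skn-1gf and from 0.15 to -0.03 in daf-2lf, both against wild type, and the share of calls that were higher from 51.8% to 40.4% and from 56.3% to 45.2%. Leaving out daf-2lf replicate 1 under TMM gave medians of -0.07 in skn-1gf and 0.00 in daf-2lf.

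Markers of other tissues also moved with genotype. A list of 12 sperm genes summed to 795 to 917 CPM in wild type, 183 to 478 in skn-1gf and 13.1 to 19.1 in daf-2lf, where 6 of its genes were at 0. Its sum in the double mutant was 22.6 to 27.2 CPM, with 4 genes at 0. A list of 14 oocyte and germline genes summed to 1934 to 2111, 437 to 1379, 347 to 664 and 641 to 673 CPM in the same order. A list of 8 neuron genes summed to 395 to 436, 551 to 674, 703 to 870.4 and 760.5 to 765 CPM. The intestine list, with 9 genes in the table, summed to 5243 to 5779 CPM in wild type, 8822 to 10923 in skn-1gf, 9665 to 15858 in daf-2lf and 9836 to 11596 in the double mutant. The sum hid opposite changes, since in skn-1gf against wild type 3 of its 9 genes were called higher and 4 lower. A list of 6 hypodermis genes summed to 1489 to 2163, 546 to 737, 1245 to 2166 and 1040 to 1281 CPM in the order above. The sums of 6 body wall muscle and 5 pharynx genes overlapped wild type in both single mutants and lay above it in the double mutant. The part of these shifts in the changes below was not tested. In whole-worm RNA, fewer cells of a type and less RNA per cell cannot be told apart.

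**Figure D1:**
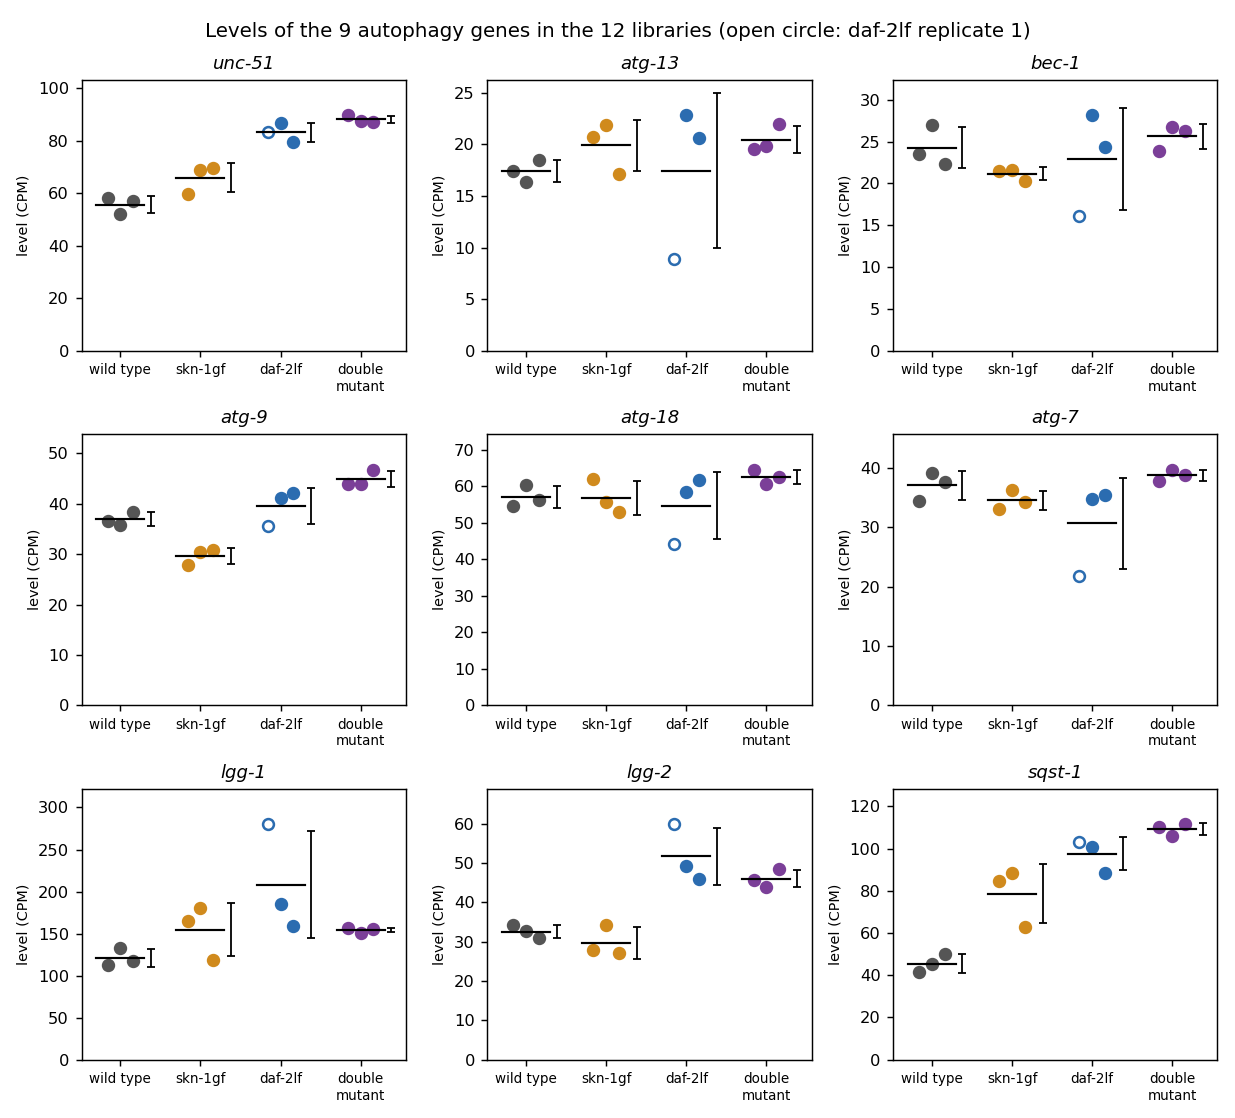
Level of each of the 9 autophagy genes in CPM (y axis, from 0) in the 12 libraries by genotype (x axis); points are libraries, horizontal lines group means and bars 1 SD, and the open circle is daf-2lf replicate 1. The wild-type libraries of sqst-1 sit at 41.4 to 50.01 CPM, below all libraries of the other genotypes, while bec-1 stays between 16.15 and 28.2 CPM throughout.

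The initiation kinase gene unc-51 (gene ID 180311, chromosome V, 19995986 to 20004485, minus strand, 9 exons, WBcel235) read 58.1, 52.0 and 57.0 CPM in wild type and 59.5, 68.8 and 69.5 CPM in skn-1gf. Its daf-2lf libraries had 83.3, 86.7 and 79.4 CPM and its double-mutant libraries 89.7, 87.5 and 87.1 CPM. All 6 libraries with daf-2lf lay above all libraries without it. The share of all genes with this split was not counted. In either direction, 61.2% of all genes had no overlap between daf-2lf and wild type, and 56.3% none between the double mutant and skn-1gf. The group means ordered as wild type (55.7 ± 3.27 CPM), skn-1gf (65.9 ± 5.56), daf-2lf (83.1 ± 3.65) and double mutant (88.1 ± 1.43). unc-51 rose in daf-2lf by a log2 change of 0.58 (SE 0.12, adjusted p = 0.00169), called in all 20 alternative settings and at 0.47 without daf-2lf replicate 1. Against skn-1gf it was higher in the double mutant by 0.42 (SE 0.12, adjusted p = 0.0187). That call was lost without skn-1gf replicate 1 (0.32, adjusted p = 0.119) and without any single double-mutant library (0.40 to 0.43, adjusted p = 0.0571 to 0.0668), and the length trend gave 0.20 (adjusted p = 0.526). Neighbours in the order did not pass the test: the differences were 0.24 in skn-1gf against wild type (adjusted p = 0.12), 0.33 in daf-2lf against skn-1gf (adjusted p = 0.0523) and 0.08 between daf-2lf and the double mutant (adjusted p = 0.736). The second of these was called without daf-2lf replicate 1 (0.32, adjusted p = 0.0218).

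Its partner atg-13 (gene ID 176150, chromosome III, 8155947 to 8158190, minus strand) read 17.4, 16.3 and 18.5 CPM in wild type and 20.7, 21.9 and 17.1 CPM in skn-1gf. The daf-2lf libraries had 8.88, 22.8 and 20.6 CPM, and the double-mutant ones 19.5, 19.9 and 21.96 CPM. Apart from daf-2lf replicate 1, the groups overlapped or lay within a few CPM of each other. No pair of genotypes differed by the test, and the change in daf-2lf against wild type was 0.00 (95% interval -0.59 to 0.59), or 0.34 (adjusted p = 0.0109) under sample quality weights, which give daf-2lf replicate 1 a weight of 0.037. atg-13 shares 134 exonic bases with D2007.1 on the opposite strand, whose counts came to 67.1% of its own. Whether counting used strand is not given in the sources used here, so the 2 genes' reads may not be fully separated.

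The nucleation gene bec-1, the worm's beclin 1, lies on chromosome IV (gene ID 177345, 5661141 to 5664425, minus strand, 7 exons), 756 bases from skn-1 on the same strand. It read 23.5, 27.0 and 22.3 CPM in wild type and 21.5, 21.6 and 20.3 CPM in skn-1gf. With daf-2lf it stood at 16.15, 28.2 and 24.4 CPM, and with both mutations at 23.8, 26.7 and 26.3 CPM. The 3 skn-1gf libraries lay below the wild-type ones. Their difference of -0.20 (SE 0.19, adjusted p = 0.412) was not called with all libraries, and without daf-2lf replicate 1 it was called at -0.29 (adjusted p = 0.027). Against skn-1gf, bec-1 in the double mutant gave 0.28 (SE 0.19, adjusted p = 0.296), and was called at 0.26 without daf-2lf replicate 1 (adjusted p = 0.0499). The rise of its neighbour skn-1 in skn-1gf was 0.34 (SE 0.11, adjusted p = 0.0264), opposite in sign to the value of bec-1.

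atg-9 encodes the membrane-spanning protein whose vesicles seed the autophagosome, and lies on chromosome V (gene ID 178561, 349385 to 359658, plus strand, 11 exons). It read 36.7, 35.8 and 38.4 CPM in wild type and 27.8, 30.4 and 30.7 CPM in skn-1gf. daf-2lf libraries gave 35.6, 41.1 and 42.1 CPM, and those of the double mutant 44.0, 43.9 and 46.8 CPM. The skn-1gf libraries were the 3 lowest and the double-mutant libraries the 3 highest of the 12. The order of the means was skn-1gf (29.7 ± 1.59 CPM), wild type (37.0 ± 1.31), daf-2lf (39.6 ± 3.51) and double mutant (44.9 ± 1.65). The ends of this order differed: atg-9 was higher in the double mutant than in skn-1gf by 0.60 (SE 0.12, adjusted p = 0.00244), a call lost only under the length trend (0.34, adjusted p = 0.224). The value in skn-1gf against wild type was -0.32 (SE 0.12, adjusted p = 0.054), just outside the threshold, and was called in 6 of 20 alternatives, among them without daf-2lf replicate 1 (-0.41, adjusted p = 0.00122). daf-2lf against skn-1gf, a comparison that called 31.9% of all genes, gave 0.42 (SE 0.12, adjusted p = 0.0213). This call was lost without skn-1gf replicate 1 (0.34, adjusted p = 0.12), skn-1gf replicate 2 (0.40, adjusted p = 0.0526), daf-2lf replicate 2 (0.39, adjusted p = 0.0594) or daf-2lf replicate 3 (0.37, adjusted p = 0.0588). Its remaining neighbours, wild type and daf-2lf (0.10) and daf-2lf and double mutant (0.18), did not differ by the test.

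atg-18, a phosphoinositide-binding protein gene (gene ID 179246, chromosome V, 8629174 to 8631327, minus strand), ranged from 44.2 to 64.6 CPM over the 12 libraries, with daf-2lf replicate 1 the lowest. Its group means lay between 54.7 ± 9.26 CPM in daf-2lf and 62.6 ± 1.94 CPM in the double mutant. The value in skn-1gf against wild type was 0.00 (95% interval -0.32 to 0.31). atg-7, which encodes the E1-like activating enzyme of the conjugation pathway (gene ID 178005, chromosome IV, 11078682 to 11081055, minus strand), read 34.4, 39.1 and 37.6 CPM in wild type and 33.09, 36.3 and 34.2 CPM in skn-1gf. Its daf-2lf values were 21.8, 34.7 and 35.4 CPM, and its double-mutant values 37.8, 39.7 and 38.8 CPM. The low value again belonged to daf-2lf replicate 1. Against wild type, atg-7 in daf-2lf gave -0.27 (SE 0.17, adjusted p = 0.202) and was called lower in 3 of 20 alternatives, among them the RLE size factors (-0.45, adjusted p = 0.0442). Against daf-2lf, the double mutant gave 0.34 (SE 0.17, adjusted p = 0.388). The value in skn-1gf against wild type, -0.10, was called without daf-2lf replicate 1 (-0.19, adjusted p = 0.0456).

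LGG-1 and LGG-2 are the worm's counterparts of Atg8 and LC3, the small proteins that are joined to lipid on the autophagosome. lgg-1 (gene ID 174050, chromosome II, 6346960 to 6347719, minus strand, 2 exons) read 112, 132.8 and 118 CPM in wild type and 165, 180.3 and 119.1 CPM in skn-1gf. The daf-2lf libraries held 280.3, 186 and 159 CPM, and the double-mutant libraries 156, 151 and 155 CPM. daf-2lf replicate 1 stood far above every other library, and skn-1gf replicate 3 lay inside the wild-type range while replicates 1 and 2 lay above it. The order of the means was wild type (121 ± 10.7 CPM), double mutant (154 ± 2.94), skn-1gf (155 ± 31.8) and daf-2lf (208 ± 63.8). Leaving out daf-2lf replicate 1 and scaling anew gave a daf-2lf mean of 171 ± 18.9 CPM over 2 libraries. On that scale the wild-type mean was 129 ± 10.6 CPM.

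lgg-1 rose in daf-2lf against wild type by 0.79 (SE 0.21, adjusted p = 0.00778). Without daf-2lf replicate 1 the value was 0.41 (adjusted p = 0.0306), and in a fit of wild type and daf-2lf alone the call was lost (0.64, adjusted p = 0.0567). No neighbours in the order passed the test: the double mutant against wild type gave 0.35 (SE 0.21, adjusted p = 0.19), the double mutant against skn-1gf 0.00 (95% interval -0.46 to 0.45) and daf-2lf against skn-1gf 0.43 (SE 0.21, adjusted p = 0.145). The first of these was called in a fit of wild type and the double mutant alone (0.24, adjusted p = 0.011) and under sample quality weights (0.39, adjusted p = 0.000225). daf-2lf against skn-1gf was called without daf-2lf replicate 3 (0.59, adjusted p = 0.048), which leaves replicate 1 as 1 of 2 libraries. In skn-1gf against wild type lgg-1 gave 0.36 (SE 0.21, adjusted p = 0.186), called only under sample quality weights (0.48, adjusted p = 8.57e-05).

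lgg-2 (gene ID 177989, chromosome IV, 10934196 to 10935903, minus strand, 3 exons) read 34.1, 32.6 and 30.9 CPM in wild type and 27.8, 34.4 and 27.0 CPM in skn-1gf. It was at 59.9, 49.3 and 45.9 CPM in daf-2lf, and at 45.7, 44.0 and 48.4 CPM in worms with both mutations. All 6 libraries with daf-2lf lay above all 6 without it, a split that was not counted over all genes. The order of the means was skn-1gf (29.7 ± 4.02 CPM), wild type (32.5 ± 1.62), double mutant (46.0 ± 2.24) and daf-2lf (51.7 ± 7.28). lgg-2 rose in daf-2lf against wild type by 0.67 (SE 0.15, adjusted p = 0.00241), in all 20 alternatives, and by 0.44 without daf-2lf replicate 1 (adjusted p = 0.00426). It was also higher in the double mutant than in skn-1gf by 0.63 (SE 0.15, adjusted p = 0.00557), called in all 20 alternatives. skn-1gf against wild type gave -0.13 (SE 0.15, adjusted p = 0.496), and adding skn-1gf to daf-2lf gave -0.17 (SE 0.15, adjusted p = 0.563). The former was called under the length trend (-0.40, adjusted p = 0.0161) and under sample quality weights (-0.24, adjusted p = 0.0084). The middle step, from wild type to the double mutant, where 47.3% of all genes were called, gave 0.50 (SE 0.15, adjusted p = 0.0141) and was called in 15 of 20 alternatives. It was lost under RLE size factors (0.32, adjusted p = 0.0873) and DESeq2 (0.32, adjusted p = 0.0617), without a filter (0.39, adjusted p = 0.107), without wild-type replicate 3 (0.46, adjusted p = 0.0573) or without double-mutant replicate 3 (0.46, adjusted p = 0.055).

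sqst-1 encodes the worm's p62, a receptor that links ubiquitinated cargo to the autophagosome and is itself degraded with it. In mammals the p62 gene is a target of Nrf2, a relative of SKN-1. The gene lies on chromosome IV (gene ID 178139, 12034282 to 12036891, plus strand, 3 exons) and read 41.4, 45.3 and 50.01 CPM in wild type and 84.8, 88.3 and 62.9 CPM in skn-1gf. Its daf-2lf libraries read 103, 101 and 88.5 CPM, and its double-mutant libraries 110.2, 106 and 112 CPM. All 9 mutant libraries lay above the wild-type ones, and the double-mutant libraries were the 3 highest of the 12. The lowest skn-1gf library, replicate 3, was also the skn-1gf library with the highest germline sum, 1379 CPM against 861 and 437 CPM. How far the 2 are related was not tested.

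sqst-1 rose in skn-1gf against wild type by 0.79 (SE 0.15, adjusted p = 0.00165) and in daf-2lf against wild type by 1.10 (SE 0.15, adjusted p = 8.3e-05). Both held in all 20 alternatives, at 0.63 to 0.93 for skn-1gf and at 0.95 in daf-2lf without daf-2lf replicate 1. The means ordered as wild type (45.6 ± 4.33 CPM), skn-1gf (78.7 ± 13.8), daf-2lf (97.5 ± 7.86) and double mutant (109 ± 2.84). skn-1gf and daf-2lf did not differ by the test (0.31, SE 0.15, adjusted p = 0.145), nor did daf-2lf and the double mutant (0.17, SE 0.15, adjusted p = 0.575, 95% interval -0.16 to 0.49). The ends of the order differed by 1.26 (SE 0.15, adjusted p = 2.49e-05). The double mutant was above skn-1gf by 0.47 (SE 0.15, adjusted p = 0.0303), called in 13 of 20 alternatives. That call was lost without skn-1gf replicate 1 (0.51, adjusted p = 0.0613), without skn-1gf replicate 3 (0.33, adjusted p = 0.0885), and without any single double-mutant library (0.46 to 0.49, adjusted p = 0.0697 to 0.0916), and the length trend gave 0.31 (adjusted p = 0.312).

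**Figure D2:**
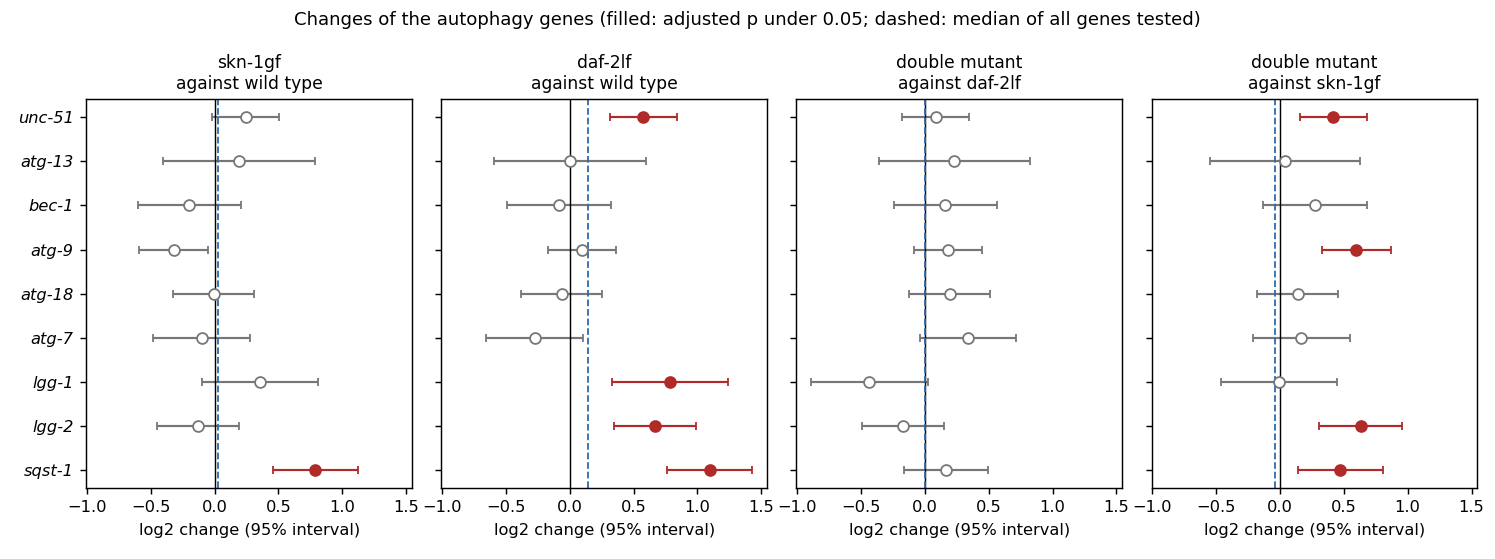
Log2 change of each autophagy gene (y axis: gene; x axis: log2 change) in the 4 comparisons of genotypes, with 95% intervals; filled points have an adjusted p under 0.05 and the dashed line is the median of all genes tested. In skn-1gf against wild type the filled point is sqst-1 at 0.79, in daf-2lf the filled points run from 0.58 to 1.10, and the panel of the double mutant against daf-2lf has none.

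In skn-1gf against wild type 1 of 9 members was called, where 43.6% of all genes tested were called and 22.6% were called higher. The members' median change was 0.00 where that of all genes was 0.03. The skn-1gf libraries lay apart from the wild-type ones without overlap in 4 members, 2 higher and 2 lower, as in 67.4% of all genes. Without daf-2lf replicate 1, a library of neither genotype compared, 4 of 9 members were called, sqst-1 higher and bec-1, atg-7 and atg-9 lower. There 60.1% of all genes were called, and the median change of all genes tested was -0.07. In daf-2lf against wild type 4 of 9 were called, all higher, where 52.3% of all genes were called and 29.5% were called higher. The median was 0.10 for the members and 0.15 for all genes, or 0.21 and 0.00 without daf-2lf replicate 1, where 4 of 9 were called and 59.5% of all genes. Without overlap, daf-2lf stood above wild type in 4 members and below it in 0. Of all genes, 61.2% had no overlap in either direction, and the share above alone was not counted. These comparisons share the wild-type libraries.

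The double mutant against daf-2lf bears on the question in the study's title, and edgeR called 0 of 9 members there. The share of all genes called was 1.62%. At an unadjusted p under 0.05 the count was also 0, and DESeq2 called 0. The changes ran from -0.43 for lgg-1 (SE 0.21, adjusted p = 0.361, 95% interval -0.89 to 0.02) to 0.34 for atg-7, with a median of 0.17 against 0.00 for all genes. unc-51, atg-7, atg-9 and sqst-1 had all 3 double-mutant libraries above all 3 daf-2lf libraries, and lgg-1 had all 3 below. Such gaps without overlap occurred in 23.7% of all genes. Without daf-2lf replicate 1 the range of the changes narrowed to -0.16 to 0.21, with lgg-1 at -0.16 (adjusted p = 0.766).

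In the double mutant against skn-1gf, 4 of 9 members were called, all higher, where 31.7% of all genes were called and 13.4% were called higher. Their median was 0.28 and that of all genes -0.04. The other 5 members had values from 0.00 for lgg-1 to 0.28 for bec-1. The double mutant lay above skn-1gf without overlap in 6 of 9 members and below it in 0. Of all genes, 56.3% had no overlap in either direction, and the share above alone was not counted.

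The skn-1gf effect itself was compared between the daf-2lf and the wild-type background, as a difference of the changes. For sqst-1 the effect was 0.79 in wild type and 0.17 in daf-2lf, a difference of -0.62 (SE 0.21, adjusted p = 0.0475). That was the single call among the 9 members, where 27.7% of all genes were called and 17.7% in the negative direction. It held in 4 of 19 alternatives, with values from -0.87 to -0.47 and adjusted p from 8.22e-05 to 0.185. Of the 12 fits that leave out a library, it was called without skn-1gf replicate 3 and without daf-2lf replicate 3, and was lost in the other 10 at -0.69 to -0.48, with adjusted p from 0.0512 to 0.122. For atg-9 the effect was -0.32 in wild type and 0.18 in daf-2lf, a difference of 0.50 (SE 0.17, adjusted p = 0.0504) that was called in 7 of 19 alternatives, among them without daf-2lf replicate 1 (0.52, adjusted p = 0.00639), daf-2lf replicate 3 (0.55, adjusted p = 0.0427) or skn-1gf replicate 3 (0.53, adjusted p = 0.046). For lgg-1 the difference was -0.79 (SE 0.30, adjusted p = 0.0648), called in 3 of 19, among them without skn-1gf replicate 3 (-0.95, adjusted p = 0.0246) or daf-2lf replicate 3 (-0.95, adjusted p = 0.0247). The remaining 6 ran from -0.16 to 0.44 and were not called with all libraries. The highest of them, atg-7 at 0.44, was called without daf-2lf replicate 1 (0.34, adjusted p = 0.0384) and under sample quality weights (0.28, adjusted p = 0.034).

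Members of different length deviated in different directions in daf-2lf replicate 1. Its log2 level minus the mean of daf-2lf replicates 2 and 3 had a median of 0.67 over genes up to 500 bases and of -1.35 over genes longer than 4000 bases. The shortest members stood high in it, lgg-1 (708 bases) by 0.71 and lgg-2 (1039 bases) by 0.33. Genes of like length had medians of 0.56 and 0.23. bec-1, atg-13, atg-18 and atg-7, of 1335 to 2085 bases, stood low by -0.70, -1.28, -0.44 and -0.68. The medians for their lengths were 0.00, -0.12, -0.31 and -0.39, so bec-1 and atg-13 lay farther from them than atg-18 and atg-7. sqst-1 (2253 bases) and unc-51 (2897 bases) deviated by 0.13 and 0.01, above the medians of -0.48 and -0.63 for their lengths. The longest member, atg-9 (3589 bases), deviated by -0.22, where the median for its length was -0.82.

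**Figure D3:**
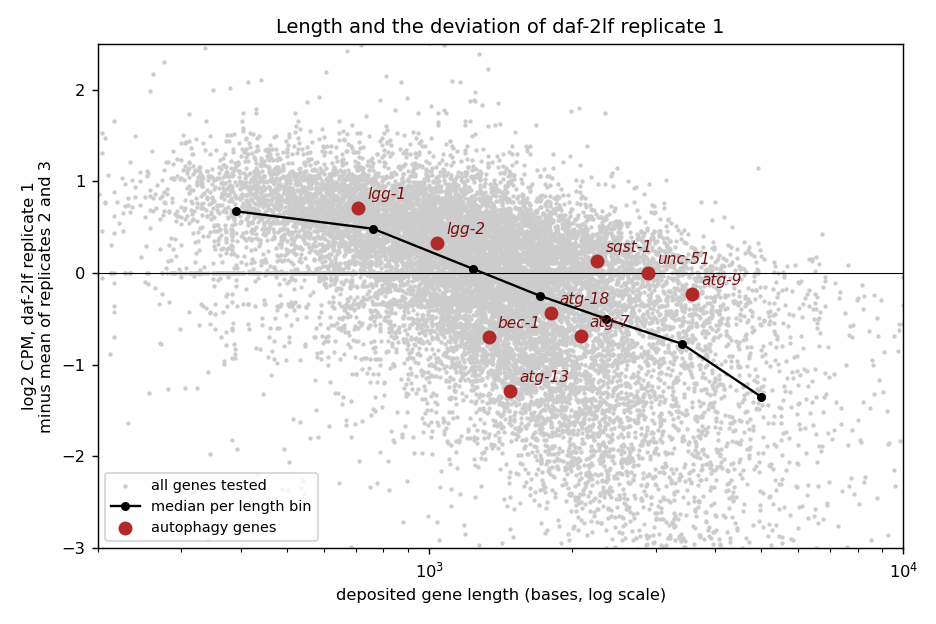
Deviation of daf-2lf replicate 1 from replicates 2 and 3 (y axis, log2 CPM) against deposited gene length (x axis, bases, log scale); grey points are all genes tested, the black line joins medians of length bins and red points are the 9 autophagy genes. The line falls from 0.67 to -1.35, lgg-1 sits at 0.71 on the left, and atg-13 at -1.28 lies farthest below it among the members.

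Leaving that library out moved the changes of the members against daf-2lf. The 4 genes called in daf-2lf against wild type stayed called, at 0.41 for lgg-1, 0.44 for lgg-2, 0.47 for unc-51 and 0.95 for sqst-1. Of these, lgg-1 and lgg-2 lost the most. A correction of every library for its own length trend gave 0.38 for lgg-1 (adjusted p = 0.0363) and 0.38 for lgg-2 (adjusted p = 0.0178) in the same comparison. It moved the others up, to 0.81 for unc-51 (adjusted p = 0.00631) and 1.18 for sqst-1 (adjusted p = 0.000612).

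**Figure D4:**
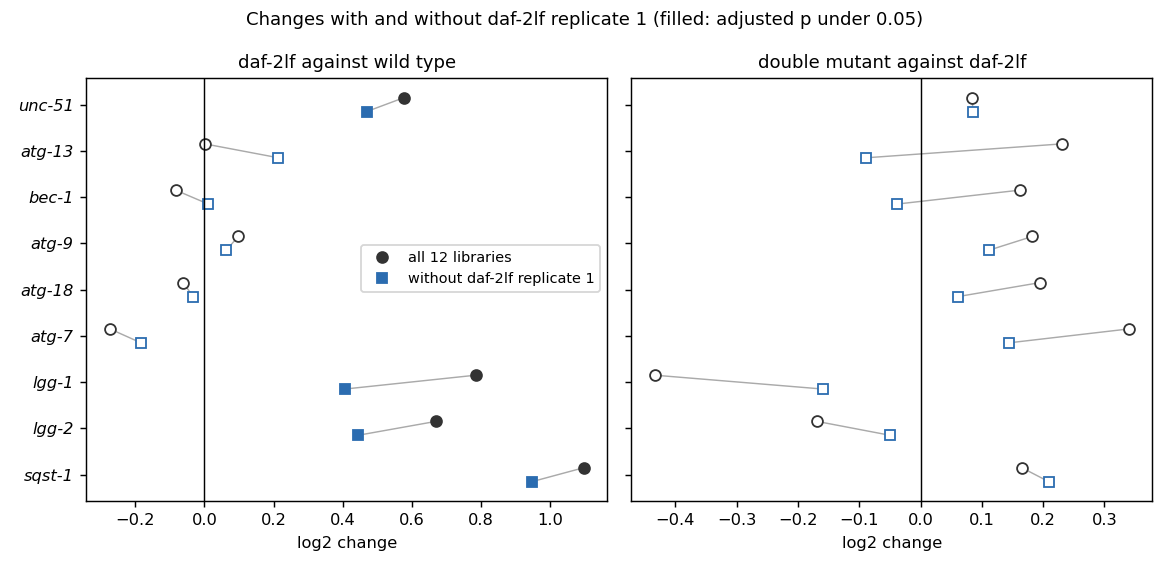
Log2 change (x axis) of each autophagy gene (y axis) with all 12 libraries (circles) and without daf-2lf replicate 1 (squares), for daf-2lf against wild type and the double mutant against daf-2lf; filled symbols have an adjusted p under 0.05. lgg-1 moves from 0.79 to 0.41 on the left and from -0.43 to -0.16 on the right, and the 4 filled genes stay filled.

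Per kilobase of deposited length, the members differed widely in level. lgg-1 stood highest, at 225 CPM per kb over the 12 libraries, above 96.5% of all genes tested. lgg-2 at 38.5, sqst-1 at 36.7 and atg-18 at 32.1 CPM per kb followed, and then unc-51 at 25.3 CPM per kb. bec-1 at 17.6, atg-7 at 16.9, atg-13 at 12.7 and atg-9 at 10.5 CPM per kb were the lowest, the last above 54.7% of genes. The order of these 3 genes after lgg-1 varied by genotype, which was not tested. lgg-2 stood second in daf-2lf, at 49.8 ± 7.003 CPM per kb. In wild type atg-18 (31.7 ± 1.65) was level with lgg-2 and above sqst-1, and in skn-1gf atg-18 (31.6 ± 2.57) lay between them. The level of sqst-1 per length was below that of lgg-2 in wild type (20.2 ± 1.92 against 31.3 ± 1.56 CPM per kb) and above it in skn-1gf (34.9 ± 6.11 against 28.6 ± 3.87) and the double mutant (48.5 ± 1.26 against 44.3 ± 2.15). The deposited lengths equalled the joined exons of each gene in the WBcel235 annotation, so these levels are per exonic base.

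The rest of the pathway was described from a list of 44 genes, of which 43 were in the table and 41 were tested. In skn-1gf against wild type 7 of 41 were called, all higher, where 43.6% of all genes were called and 22.6% were called higher. The median over the list was 0.08. The genes called were sqst-2, sqst-5, lmp-2, vps-41, atg-16.2, epg-9 and epg-8. When daf-2lf replicate 1 was left out the count was 18, with 8 higher and 10 lower, where 60.1% of all genes were called. In daf-2lf against wild type 10 of 41 were called, all higher, where 52.3% of all genes were called and 29.5% were called higher. The list's median was 0.15, equal to that of all genes. When daf-2lf replicate 1 was left out of this comparison the count was 19, with 14 higher and 5 lower. There 59.5% of all genes were called. Under RLE size factors the count was 10 with 5 higher and 5 lower, where 7968 of 15575 genes were called. Since the direction turned with the scaling and with that library, no common direction is given for the list.

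Of the 7 receptor and cargo genes tested, 2 were called in each comparison of a single mutant with wild type, both higher. Of all genes, 43.6% were called in skn-1gf and 52.3% in daf-2lf. sqst-2, a gene named as a relative of sqst-1, read 4.12, 4.0 and 6.01 CPM in wild type and 28.9, 32.6 and 19.5 CPM in skn-1gf. In daf-2lf sqst-2 read 20.8, 15.2 and 11.7 CPM, and in the double mutant 11.2, 10.5 and 10.4 CPM. Unlike sqst-1, it had its highest mean in skn-1gf (27.0 ± 6.73 CPM). Among the daf-2lf libraries, only replicate 1 (20.8 CPM) lay above the lowest skn-1gf library, replicate 3 (19.5 CPM). sqst-2 rose by 2.52 (SE 0.26, adjusted p = 1.98e-05) in skn-1gf and by 1.76 (SE 0.26, adjusted p = 0.000136) in daf-2lf, both against wild type. Without daf-2lf replicate 1 the rise in daf-2lf was 1.41 (adjusted p = 0.000431). sqst-2 gave -1.33 in the double mutant against skn-1gf (SE 0.25, adjusted p = 0.00127), where sqst-1 was higher.

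sqst-5, also named as a relative of sqst-1, was much lower in level, at 1.47, 2.22 and 2.54 CPM in wild type and 4.86, 5.75 and 4.43 CPM in skn-1gf. In daf-2lf sqst-5 read 5.47, 2.87 and 4.21 CPM, and in the double mutant 3.46, 2.68 and 1.92 CPM. It rose by 1.27 (SE 0.31, adjusted p = 0.00627) in skn-1gf and by 1.02 (SE 0.31, adjusted p = 0.0153) in daf-2lf against wild type. The latter call was lost without daf-2lf replicate 1 (0.67, adjusted p = 0.0837) and without wild-type replicate 1 (0.81, adjusted p = 0.0738). In the double mutant against skn-1gf it gave -0.90 (SE 0.30, adjusted p = 0.0378), a call lost in 7 of 20 alternatives. These included the fits without wild-type replicate 2, skn-1gf replicate 1 or 2, or double-mutant replicate 2 (-0.95 to -0.83, adjusted p = 0.0519 to 0.0959) and without double-mutant replicate 3 (-0.70, adjusted p = 0.151). The other receptor genes tested, epg-2, dct-1, fndc-1, pink-1 and pdr-1, were not called in either comparison.

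Among the fusion and lysosome genes, lmp-2, which encodes a LAMP-like lysosomal membrane protein, read 7.93, 9.87 and 7.81 CPM in wild type. The skn-1gf libraries read 22.6, 29.7 and 17.6 CPM, the daf-2lf libraries 21.97, 28.2 and 19.2 CPM, and the double-mutant ones 19.2, 18.96 and 21.8 CPM. All 9 mutant libraries stood above wild type and overlapped among themselves. The rise was 1.45 (SE 0.21, adjusted p = 0.000264) in skn-1gf and 1.44 (SE 0.21, adjusted p = 0.000144) in daf-2lf. Of the 16 genes of this role 2 were called higher in skn-1gf and 3 in daf-2lf. The shares of all genes called higher there were 22.6% and 29.5%. In daf-2lf, lmp-1 (0.53) and scav-3 (0.46), also genes of lysosomal membrane proteins, joined lmp-2. Those calls of lmp-1 and scav-3 held in 10 and 12 of 20 alternatives, with values over all 20 of 0.21 to 0.67 and 0.28 to 0.64, and lmp-1 lost its call without daf-2lf replicate 1 (0.21, adjusted p = 0.207). Both calls of lmp-2 held in all 20. vps-41, a gene of the tethering complex at the lysosome, was called in skn-1gf (0.52) and in 8 of 20 alternatives. Among the 2 regulators, hlh-30, the worm's TFEB and an activator of autophagy genes, read 108, 112 and 109.7 CPM in wild type and 118.8, 135 and 133 CPM in skn-1gf. In daf-2lf hlh-30 read 209, 201 and 188 CPM, and in the double mutant 213, 208 and 203 CPM. Like lgg-2, unc-51, epg-9 and, narrowly, sqst-1 (88.5 against 88.3 CPM), its 6 libraries with daf-2lf all lay above the 6 without. The share of all genes with this split was not counted. hlh-30 rose in daf-2lf against wild type by 0.86 (SE 0.11, adjusted p = 5.01e-05), or by 0.72 without daf-2lf replicate 1 (adjusted p = 3.13e-05). It was higher in the double mutant than in skn-1gf by 0.69 (SE 0.11, adjusted p = 0.000365), a call lost only under the length trend (0.47, adjusted p = 0.153). The value in skn-1gf against wild type was 0.22 (SE 0.11, adjusted p = 0.12).

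Of all genes, 43.6% were called in skn-1gf and 52.3% in daf-2lf against wild type. In the initiation group 1 of 5 tested genes was called in each comparison with wild type. It was epg-9, an Atg101 counterpart, at 0.52 (SE 0.14, adjusted p = 0.00941) in skn-1gf and 0.83 (SE 0.14, adjusted p = 0.000328) in daf-2lf. The length trend took the former to 0.27 (adjusted p = 0.0982), and without daf-2lf replicate 1 the latter was 0.70 (adjusted p = 0.000377). Of the 8 conjugation genes 1 was called in skn-1gf, atg-16.2 (0.71), in 14 of 20 alternatives, and 3 in daf-2lf, atg-16.2 (0.60), atg-4.1 (0.39) and atg-10. atg-16.2 and atg-4.1 were called in daf-2lf in 9 and 10 of 20 alternatives, with values over all 20 of 0.42 to 0.80 and 0.21 to 0.44. atg-10, which encodes an E2-like enzyme, had the largest value of the 3, 1.27 (SE 0.46, adjusted p = 0.0353). It read 0.907, 0.771 and 1.02 CPM in wild type and 3.16, 2.27 and 1.07 CPM in daf-2lf. The call was lost in 11 of 20 alternatives, among them without daf-2lf replicate 1 (0.78, adjusted p = 0.184), daf-2lf replicate 2 (1.24, adjusted p = 0.0715), any single wild-type library (1.17 to 1.36, adjusted p = 0.065 to 0.101) or skn-1gf replicate 1 (1.24, adjusted p = 0.0537). Of the 3 lipid kinase complex genes, epg-8, an Atg14 counterpart, was called in skn-1gf (0.46, adjusted p = 0.0479), and in 5 of 20 alternatives, with values over all 20 of 0.21 to 0.59.

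In the double mutant against daf-2lf edgeR and DESeq2 called 0 of these 41 genes, and 3 had an unadjusted p under 0.05. There edgeR called 1.62% of all genes. The double mutant against skn-1gf gave 4 calls, hlh-30 and atg-2 higher and sqst-2 and sqst-5 lower, where 31.7% of all genes were called. The count was 11 without daf-2lf replicate 1, with 7 higher and 4 lower, where 7318 of 15840 genes were called. It was 2 without skn-1gf replicate 1 or 2 or without double-mutant replicate 2 or 3, where 3850 to 4278 genes were called. atg-2, which encodes a lipid transfer protein and is 7399 bases long, read 36.8, 33.0 and 35.6 CPM in skn-1gf and 67.4, 70.9 and 77.0 CPM in the double mutant, a change of 1.03 (SE 0.32, adjusted p = 0.0273). The groups did not overlap, yet the call was lost without any single skn-1gf or double-mutant library (0.95 to 1.07, adjusted p = 0.0541 to 0.0891). In daf-2lf atg-2 read 20.8, 67.9 and 62.6 CPM, with replicate 1 the low one.

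The skn-1gf effect differed between the backgrounds for 3 of the 41 genes, where 27.7% of all genes were called. All 3 differences were negative. The count was 10 without daf-2lf replicate 1, with 3 higher and 7 lower, where 5921 of 15840 genes were called. Under RLE size factors and DESeq2 it was 4 with 1 higher, where 4122 of 15575 and 5117 of 15574 genes were called. The difference was -3.09 (SE 0.36, adjusted p = 0.000146) for sqst-2, -1.92 (SE 0.43, adjusted p = 0.0073) for sqst-5 and -1.65 (SE 0.30, adjusted p = 0.00211) for lmp-2. Each was called in all 19 alternatives, in this order at -2.75, -1.59 and -1.59 without daf-2lf replicate 1. The skn-1gf effect in daf-2lf was -0.57 for sqst-2 (SE 0.25, adjusted p = 0.313), against 2.52 in wild type. Of the sqst genes tested, sqst-1 thus had the smallest such difference, and the only one whose call depended on the setting; the sizes were not compared by a test.

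**Figure D5:**
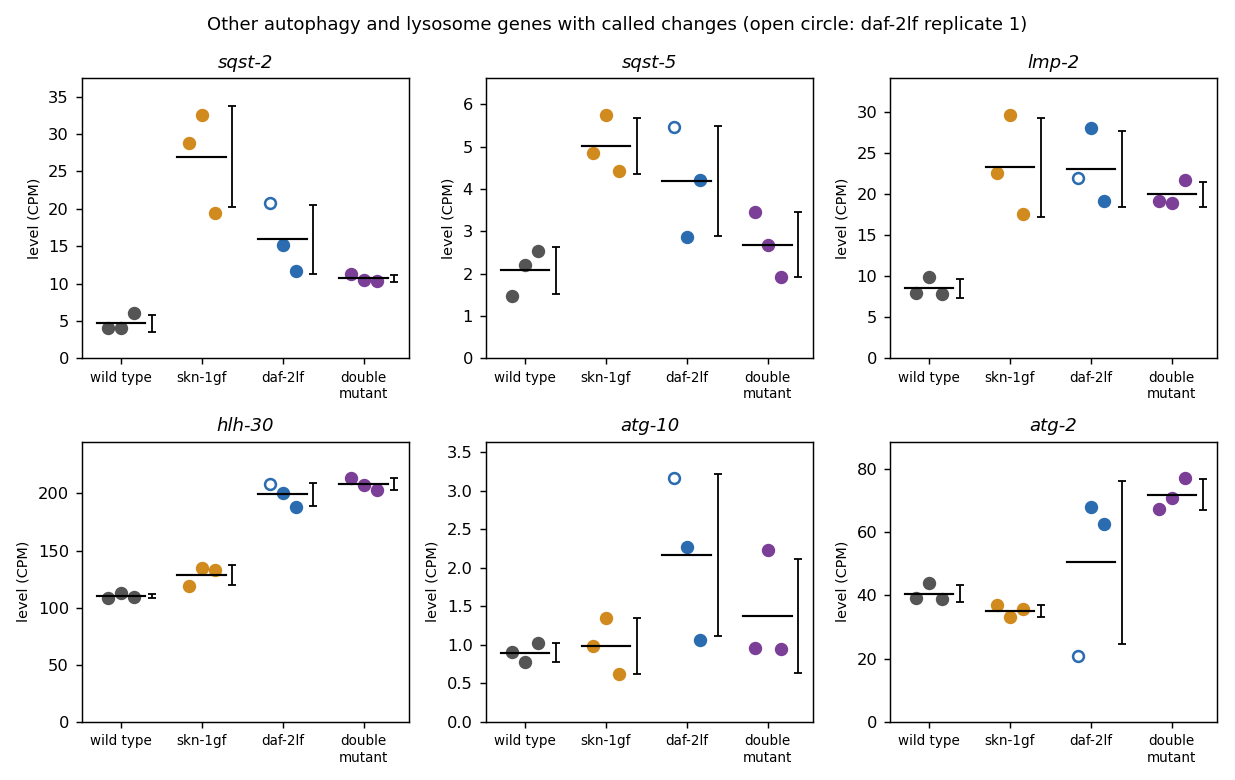
Level in CPM (y axis, from 0) of 6 other autophagy and lysosome genes in the 12 libraries by genotype (x axis); points are libraries, lines group means, bars 1 SD and the open circle daf-2lf replicate 1. sqst-2 peaks in skn-1gf at 19.5 to 32.6 CPM, lmp-2 stands at 17.6 to 29.7 CPM in all mutants, and hlh-30 is at 188 to 213 CPM in the 6 libraries with daf-2lf.

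Genes with the pattern most like that of a member were found by the root mean square difference in log2 CPM over the 12 libraries, after each gene's own mean was subtracted. For sqst-1 they were npr-28, F53E10.1 and brp-1, each at 0.12, where the median over all genes was 0.66. For lgg-2 they were Y97E10C.1 at 0.08, mig-1 at 0.11 and R11F4.1 at 0.12. For lgg-1 they were calu-2 at 0.07, nhr-68 at 0.09 and gtf-2A2 at 0.09. Without daf-2lf replicate 1, 1 of the 3 remained for sqst-1 (brp-1), 1 for lgg-2 (Y97E10C.1) and 0 for lgg-1. The libraries share genotype and depth, so a like pattern is a description of these 12 libraries.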

How the data were processed

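Whole-worm RNA was sequenced in 12 libraries of 4 genotypes. The authors deposited 1 table of raw, whole-number counts per gene. The aligner, the counting program and its use of strand are not given in the sources used here. The submitters' processing notes name the build ce10, while the chromosome versions and coordinates, per the file header, are those of WBcel235, and coordinates are given as deposited. Columns were matched to samples by their titles, and 0 per-sample columns were left unused.

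In R 4.3.3, edgeR 4.0.16 kept 15575 genes (filterByExpr, minimum count 10), scaled libraries by TMM and fitted 1 coefficient per genotype to all 12 libraries. Adjusted p-values run over all genes tested, and the threshold was 0.05. Alternatives were RLE size factors, no filter on low counts, DESeq2 1.42.0, limma 3.58.1 voom with and without sample quality weights, a replicate block, only the genotypes compared, a per-library length trend (lowess span 0.3), and each library left out in turn. Genes of like length lie within 0.1 on the log2 scale. Log2 CPM used a prior count of 2. The edgeR fits were tested on simulated counts, which held no library with a length trend like that of daf-2lf replicate 1.

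The members and gene lists were chosen with earlier results of these data known. All members are named. Of the other listed genes, those called in a comparison may be named, with the 3 largest changes per direction given in full and further calls named after their values were seen. atg-11 had no matching symbol in the table. sqst-3 and sqst-4 did not pass the filter.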

Additional observations from a re-analysis of the deposited data

Results flagged for a closer look

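The effect of skn-1gf differed between the wild-type and the daf-2lf background for 4 autophagy genes by edgeR's test of the difference itself, an interaction over all 12 libraries. They were 1 of the 9 members and 3 of 41 other listed genes, where the test called 27.7% of all genes. Without daf-2lf replicate 1 the counts were 2 members, atg-7 and atg-9, and 10 other genes, 3 of them with a positive difference. There 5921 of 15840 genes were called. The difference, daf-2lf background minus wild-type background, was -0.62 on the log2 scale for the cargo receptor gene sqst-1. It was -3.09 for sqst-2, -1.92 for sqst-5 and -1.65 for the lysosomal membrane protein gene lmp-2. The values of sqst-2, sqst-5 and lmp-2 were called in all 19 alternatives, and that of sqst-1 in 4 of 19. Without daf-2lf replicate 1 that of sqst-1 was -0.48 (adjusted p = 0.0512).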

How the results depend on the processing

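For skn-1gf against wild type, the 1 member called became 2 under RLE size factors, DESeq2, voom and a fit of only the genotypes compared, 3 under the length trend, 5 under sample quality weights, and 1 to 4 with a library left out (4 without daf-2lf replicate 1). Calls among the 15575 genes tested went from 6787 to 7388 under the length trend and to 11743 under sample quality weights. With a library left out they ran from 4769 of 15833 to 9522 of 15840 genes. For the double mutant against skn-1gf, 4 became 2 without a filter and 1 under the length trend, and 2 to 5 with a library left out. Over all genes the calls there were 4944 in the main fit, 4876 under the length trend and 3850 to 7318 with a library left out. For the difference of effects, 1 became 0 without a filter, with the replicate block and under the length trend, 2 under voom, 5 under sample quality weights, and 0 to 3 with a library left out. All-gene calls for it were 4308 in the main fit, 9444 under sample quality weights and 2786 to 5921 with a library left out. The count of 4 in daf-2lf against wild type, and that of 0 when skn-1gf was added to daf-2lf, stayed within 1.5 times in every alternative.

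In the difference of effects, DESeq2 called atg-9 in place of sqst-1. Same-numbered libraries are not stated to belong together, and their deviations correlated at a median of -0.0165 over 18 pairs. With the replicate block, the difference for sqst-1 was -0.61 (adjusted p = 0.0757) and sqst-5 in the double mutant against skn-1gf was -0.91 (adjusted p = 0.0582).

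Values changed sign 56 times in 17 results, never in a result called with all libraries. Under sample quality weights, atg-18 turned to 0.12 in skn-1gf and 0.072 in daf-2lf, both against wild type, and bec-1 to 0.19 in daf-2lf. The double mutant against daf-2lf gave -0.061 for bec-1 and -0.13 for atg-13, and against skn-1gf -0.020 for atg-13. The difference of effects gave 0.13 for lgg-2, -0.36 for atg-13 (adjusted p = 0.0327, the 1 sign change that became a call) and -0.052 for atg-18. Under the length trend, atg-13 gave -0.052 in skn-1gf and -0.23 in daf-2lf. The double mutant against daf-2lf gave -0.36 for unc-51, -0.16 for sqst-1 and -0.33 for atg-9, and against skn-1gf 0.20 for lgg-1. The difference of effects gave 0.34 for lgg-2 and -0.053 for atg-9. In daf-2lf against wild type, atg-9 and atg-13 gave -0.081 and -0.18 under RLE size factors, -0.082 and -0.18 under DESeq2, -0.016 and -0.11 without a filter, and -0.041 and -0.13 with only the genotypes compared. atg-13 gave -0.12 under voom and -0.046 with the replicate block. lgg-1 in the double mutant against skn-1gf gave 0.021 and 0.016 under these. The difference for lgg-2 was 0.12 under RLE size factors and DESeq2 and 0.081 without a filter. With a library left out, atg-13 ran from -0.24 to 0.21 in daf-2lf against wild type, -0.088 to 0.47 in the double mutant against daf-2lf, -0.060 to 0.081 against skn-1gf and -0.18 to 0.28 in the difference of effects. atg-18 ran from -0.097 to 0.046 in skn-1gf, bec-1 from -0.26 to 0.011 in daf-2lf and -0.038 to 0.34 in the double mutant against it, lgg-1 from -0.16 to 0.086 in the double mutant against skn-1gf, and lgg-2 from -0.12 to 0.18 in the difference of effects. The causes were not tested.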
